A study of Mus musculus with 16 samples.

Results

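Mel322-34 and Mel321-35 are 2 monoclonal antibodies from a study of decoy antibodies against extracellular HSP70, and here they were set against each other instead of against a control. The comparison takes in every analysed library of these 2 antibodies, which is 7 of the 15 in the study: 4 of Mel322-34 and 3 of Mel321-35. All were made from B16-F10, a mouse melanoma cell line that makes pigment and that the labels give as wild type, after 24 h with the antibody, from poly(A)-selected RNA with strand-specific libraries. Per the labels, all 4 Mel322-34 libraries and Mel321-35 replicates 3 and 4 belong to batch 1, and Mel321-35 replicate 1 is the only batch 2 library, so it differs from the Mel322-34 libraries in batch as well as in antibody, and from the other Mel321-35 libraries in batch. Mel321-35 replicate 2 was not analysed here. No untreated cells and no dose were given in the labels. The other 2 antibodies, Mel321-31 and the isotype control MGO.53 (4 libraries each, batch 1), entered the fit to share the estimate of spread and are otherwise given only as levels. The labels call the samples biological replicates without naming separate cultures or days, so the spread behind each p-value may be technical. Results are given for batch 1 (n = 4 for Mel322-34, n = 2 for Mel321-35) and then with the batch 2 library added (n = 4 and n = 3).

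HSP70 chaperones fold proteins inside cells, and HSP70 released from cells is reported to act on surface receptors that feed NF-kB, a family of transcription factors held in the cytoplasm by inhibitors of the IkB type. NF-kB dimers switch on chemokines, growth factors of the immune system and their own subunits and inhibitors, so that the response also shuts itself off. TGF-beta, another signal whose genes are listed below, acts through SMAD factors on genes of the extracellular matrix.

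Few genes were told apart between the 2 antibodies, and the likeness of the rest was not tested. Of 14633 genes tested in batch 1, 38 were called (edgeR, adjusted p under 0.05), or 0.26%: 28 were higher with Mel322-34 (0.191%) and 10 were lower (0.0683%). The changes were small: ignoring sign, the median log2 fold change of the 38 was 0.39. None of the 28 higher genes reached 1.5-fold, while 6 of the 10 lower genes did and 3 of them reached 2-fold. At an unadjusted p under 0.05 there were 1406 genes, or 9.61%, of which 816 were higher (5.58%) and 590 lower (4.03%). For 35 of the 38 the 4 Mel322-34 libraries and the 2 Mel321-35 libraries did not overlap, which held for 18% of all tested genes. The number of calls hung on single libraries: it was 15 without Mel322-34 replicate 1, 12 without its replicate 3, 58 without its replicate 4 and 0 without Mel321-35 replicate 4 (730 genes at an unadjusted p under 0.05, edgeR), a fit that leaves 1 Mel321-35 library and assumes that it varies like the others. Without Mel321-35 replicate 3 there were 45, but the balance turned to 18 higher and 27 lower.

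With the batch 2 library added, 146 of 14231 genes were called (1.03%), 113 higher (0.794%) and 33 lower (0.232%). Among them were 28 of the 38 batch 1 calls, which is 73.7% of the 38 and 19.2% of the 146, and all 38 kept their sign. By direction, 26 of the 28 higher genes were called again, against 2 of the 10 lower ones. Among the 146, the libraries did not overlap for 141, against 12% of all genes tested. This count too moved with single libraries: it was 21 without Mel322-34 replicate 1, 22 without its replicate 3, 434 without Mel321-35 replicate 3 and 8 without Mel321-35 replicate 4.

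**Figure D1:**
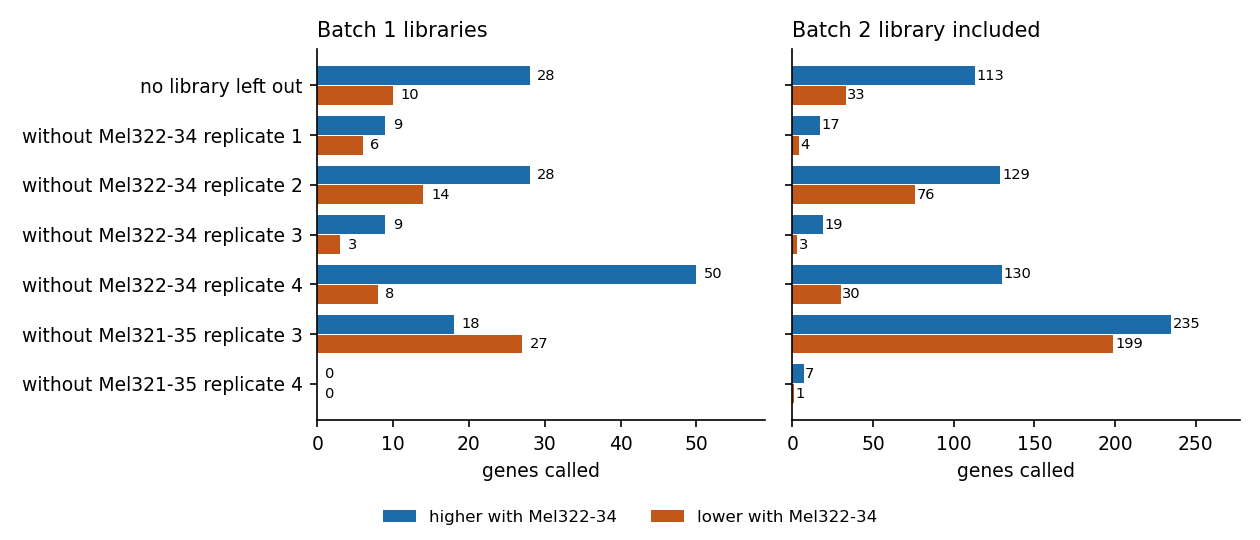
Genes called higher (blue) or lower (orange) with Mel322-34 than with Mel321-35 when each library is left out in turn, in batch 1 (left) and with the batch 2 library included (right), as numbers of genes at an adjusted p under 0.05. Bars start at 0, and the 2 panels have different scales. In batch 1 the count is 28 and 10 with no library left out and 0 and 0 without Mel321-35 replicate 4.

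Among the 6 batch 1 libraries compared, totals ran from 26.2 to 35.2 M and mitochondrial shares from 1.96 to 2.17%. The batch 2 library stood apart in the genes it held. Total counts were 35.0, 32.2, 31.9 and 29.1 M with Mel322-34, against 35.2 (replicate 3), 26.2 (replicate 4) and 26.1 (replicate 1, batch 2) M with Mel321-35 (exact two-sided permutation p = 0.8 in batch 1, where 0.0667 is the smallest possible, and 0.4 with all 7, where it is 0.0286). Mitochondrial transcripts took 2.06 ± 0.106% of the counts with Mel322-34 (SD, n = 4), against a mean of 2.08% in the batch 1 libraries of Mel321-35 (exact two-sided permutation p = 0.667 in batch 1). The 8 defining melanocyte markers stood between 190 and 12900 CPM (the count scaled to the library's total) in all 7 libraries, in keeping with the label. Of the markers of leukocytes, endothelium, fibroblasts and epithelia, 18 stood between 0 and 0.459 CPM, with 9 of them at 0 throughout. Others stood higher, among them Cd68 (14.2 to 17.7 CPM), Col1a1 (2.37 to 3.90), Krt8 (0 to 5.62) and Krt18 (0 to 4.89). In bulk RNA, fewer cells of a type and less RNA per cell cannot be told apart. The summed level of 8 keratinocyte markers, of which 0 were high enough to test, was 0.0572, 0.124, 0.314 and 0.103 CPM with Mel322-34, against 0.0284 (replicate 3), 0 (replicate 4) and 0 (replicate 1) CPM with Mel321-35 (exact permutation p = 0.0667 in batch 1 and 0.0286 with all 7; 0.367 and 0.314 when adjusted over 11 such tests). The batch 2 library held 95 transcripts at least 8-fold lower than the batch 1 mean and 0 as much higher, and had 17192 genes detected, against 18213 to 19019 in the other 6. Of these 95, Cxcl1 was called lower in batch 1 and 0 were called with the batch 2 library added.

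The 10 genes that were lower with Mel322-34 were led by NF-kB genes, and 8 of them were highest in 1 Mel321-35 library. The 8 are Cxcl1, Relb, Junb, Csf1, Zc3h12a, Nfkbia, Nfkb2 and Dusp8, and each had its highest level of all 15 libraries in Mel321-35 replicate 4, at 1.41 (Dusp8) to 6.7 (Cxcl1) times the next highest library. Without that library their log2 fold changes were between -0.37 (Relb, unadjusted p = 0.0288) and -0.072 (Nfkbia) and 0 of the 8 passed (edgeR). Replicate 3 was also above every Mel322-34 library for Relb, Junb, Zc3h12a, Nfkb2 and Dusp8, by less. The other 2, Srxn1 and Ubald2, were lower in all 4 Mel322-34 libraries than in all 3 of Mel321-35.

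The NF-kB subunit Relb (ENSMUSG00000002983), the partner of p52 in the non-canonical branch, had 8.31, 10.6, 7.16 and 9.74 CPM with Mel322-34, against 11.6 (replicate 3), 27.1 (replicate 4) and 7.14 (replicate 1, batch 2) CPM with Mel321-35. Replicate 4 stood apart, while the batch 2 library was below every Mel322-34 library. The log2 fold change was -1.10 ± 0.18 (SE, adjusted p = 0.00485) in batch 1 and -0.77 (adjusted p = 0.115) with the batch 2 library. Without replicate 4 it was -0.37 (adjusted p = 0.991), and without replicate 3 it was -1.60. Nfkb2, which encodes p100, the precursor of p52, had 44.7, 46.6, 42.1 and 45.6 CPM, against 47.6, 83.7 and 43.9 CPM in the same order. Its log2 fold change of -0.54 ± 0.11 became -0.092 without replicate 4. Nfkbia, the IkB-alpha inhibitor that NF-kB itself induces, had 25.9, 27.9, 22.6 and 29.4 CPM with Mel322-34, against 27.8 (replicate 3), 62.5 (replicate 4) and 22.3 (replicate 1) CPM with Mel321-35. Here replicate 3 lay inside the range of the Mel322-34 libraries, so the batch 1 groups overlapped, and the log2 fold change was -0.76 ± 0.16 with replicate 4 and -0.072 without it.

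Among the secreted products, the neutrophil chemokine Cxcl1 (ENSMUSG00000029380) had 0.512, 0.739, 0.438 and 0.412 CPM with Mel322-34, against 0.592 (replicate 3), 7.27 (replicate 4) and 0.117 (replicate 1) CPM with Mel321-35. It was under 1 CPM in every one of the 7 libraries but replicate 4, replicate 3 lay inside the Mel322-34 range, and the log2 fold change of -2.87 ± 0.53 (95% interval -3.95 to -1.79) became -0.17 without replicate 4. The macrophage growth factor Csf1 had 26.2, 36.1, 22.7 and 23.3 CPM, against 28.6, 73.4 and 14.1 CPM (log2 fold change -0.89 ± 0.20, or -0.079 without replicate 4). With the batch 2 library in and replicate 4 out, the fold changes of Csf1, Cxcl1 and Nfkbia turned to 0.32, 0.50 and 0.073. Zc3h12a, the Regnase-1 nuclease that degrades inflammatory messenger RNAs, had 3.73, 4.37, 3.72 and 3.94 CPM, against 4.96, 9.07 and 3.36 CPM (-0.82 ± 0.18, or -0.33 without replicate 4).

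The same library carried the AP-1 subunit Junb (ENSMUSG00000052837), at 35.6, 40.9, 30.3 and 36.7 CPM with Mel322-34, against 41.6 (replicate 3), 108 (replicate 4) and 37.4 (replicate 1) CPM with Mel321-35. Its log2 fold change was -1.04 ± 0.18 (adjusted p = 0.00531) in batch 1, -0.79 (adjusted p = 0.0641) with the batch 2 library and -0.22 without replicate 4. Dusp8, a phosphatase of stress-activated MAP kinases, was the mildest of the 8, at 15.3, 12.3, 13.2 and 11.6 CPM, against 15.6, 22.1 and 13.3 CPM (-0.52 ± 0.11, or -0.26 without replicate 4).

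**Figure D2:**
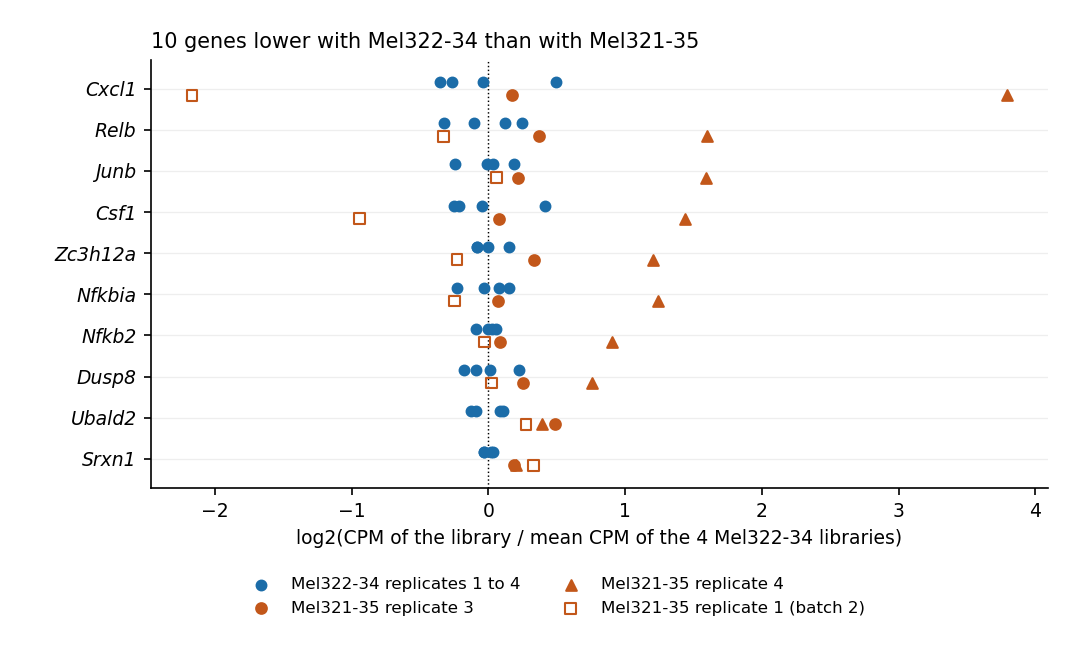
The 10 genes called lower with Mel322-34 than with Mel321-35 in batch 1, each library shown as the log2 ratio of its CPM to the mean of the 4 Mel322-34 libraries (blue circles). Mel321-35 replicate 4 (triangle) stands to the right of all others for 8 genes, while replicate 3 (filled orange circle) and the batch 2 replicate 1 (open square) lie nearer to 0 or to the left of it. For Srxn1 and Ubald2 all 3 Mel321-35 libraries lie to the right of the Mel322-34 libraries.

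Mel321-35 replicate 4 was searched for all genes that it alone held high. Of 11691 genes with at least 1 CPM on average, 12 were at least 1.5-fold above each of the other 14 libraries (0.103%), against 0 to 2 genes for each of the other 6 libraries of these antibodies. In order of their ratio to the next highest library they were Junb (2.47), Relb (2.35), Nfkbiz (2.14), Csf1 (2.03), Nfkbia (1.96), Rgs16 (1.87), Zc3h12a (1.83), Nfkbie (1.79), Nfkb2 (1.67), Birc3 (1.62), Lif (1.53) and Ier3 (1.52). Nfkbiz, Nfkbie and Birc3 encode a pair of further IkB proteins and an inhibitor of apoptosis, and Lif is a cytokine. The members of this group that were not called were named after their values were seen. Of the 12, 7 belong to the NF-kB list of 30 genes and 6 were among the genes called lower. The share of that list among the 11691 genes is not given here. Cxcl1, at 6.7 times the next highest library, was outside this search because its average was under 1 CPM. Replicate 4 had the lowest total count of the 6 batch 1 libraries compared (26.2 M, against 29.1 to 35.2 M) and the fewest genes detected (18213, against 18612 to 19019), with a mitochondrial share of 2.16%. The part of depth in these values was not tested.

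Across the whole NF-kB list of 30 genes, 26 were tested in batch 1: 0 rose and 5 fell (Relb, Cxcl1, Nfkb2, Nfkbia and Csf1), against 0.191% and 0.0683% of all genes. The median log2 fold change was -0.24, against -0.0043 over all genes tested. With the batch 2 library 0 of 26 passed in either direction (edgeR) and the median was -0.099. Without replicate 4 in batch 1, 0 passed and the median was -0.057, and with the batch 2 library in and replicate 4 out the median was 0.44. The subunits Rela and Nfkb1, on which the canonical branch rests, had log2 fold changes of -0.086 ± 0.061 and -0.047 ± 0.060, and the feedback inhibitor Tnfaip3 had 4.67, 8.87, 3.56 and 7.03 CPM, against 6.51, 15 and 1.4 CPM, without passing (-0.82 ± 0.26, adjusted p = 0.208). Of 33 immediate early genes Junb alone passed, while Jun (-0.24 ± 0.082), Fos (-0.012 ± 0.13) and Myc (-0.086 ± 0.052) did not.

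The promoters of the called genes were searched because 8 of the 10 lower genes shared a highest level in Mel321-35 replicate 4. RefSeq promoter windows (GRCm38.p6, 250 bases before to 50 after the start) were at hand for 9 of the 10 lower and 18 of the 28 higher genes. A form of the kappaB site (GGG, any 2 bases, then TTTCC), on either strand, was found for 4 of the 9 (Cxcl1, Nfkbia, Nfkb2 and Csf1) and for 0 of the 18, and for 1.89% of all 27025 genes (1.63% of 32851 windows). The letters TGANTCAGC, a form of the antioxidant response element that contains an AP-1 site (TGANTCA), were found for Srxn1 and in 1 of the 3 windows of Nfkb2, for 0 of the 18 higher genes and for 1.37% of all genes (1.19% of windows). The 4 kappaB windows and that of Srxn1 follow 5′ to 3′ with the matches in capitals, and the first match starts 89, 29, 11, 154 and 45 bases before the annotated start in the order given. They lie at chr5:90890995-90891294 (+) for Cxcl1, chr12:55492598-55492897 (-) for Nfkbia, chr19:46304487-46304786 (+) for Nfkb2, chr3:107760420-107760719 (-) for Csf1 and chr2:152105274-152105573 (+) for Srxn1.
Cxcl1: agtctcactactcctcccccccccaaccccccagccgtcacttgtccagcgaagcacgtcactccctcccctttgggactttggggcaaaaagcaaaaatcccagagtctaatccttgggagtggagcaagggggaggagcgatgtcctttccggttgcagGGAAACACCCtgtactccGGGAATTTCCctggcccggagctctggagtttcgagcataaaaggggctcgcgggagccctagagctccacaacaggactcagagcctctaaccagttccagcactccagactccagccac
Nfkbia: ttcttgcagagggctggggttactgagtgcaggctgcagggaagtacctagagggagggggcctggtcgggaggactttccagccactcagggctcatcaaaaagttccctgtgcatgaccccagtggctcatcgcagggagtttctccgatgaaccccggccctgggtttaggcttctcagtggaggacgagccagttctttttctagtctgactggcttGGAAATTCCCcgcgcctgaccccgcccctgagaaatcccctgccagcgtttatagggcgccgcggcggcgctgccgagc
Nfkb2: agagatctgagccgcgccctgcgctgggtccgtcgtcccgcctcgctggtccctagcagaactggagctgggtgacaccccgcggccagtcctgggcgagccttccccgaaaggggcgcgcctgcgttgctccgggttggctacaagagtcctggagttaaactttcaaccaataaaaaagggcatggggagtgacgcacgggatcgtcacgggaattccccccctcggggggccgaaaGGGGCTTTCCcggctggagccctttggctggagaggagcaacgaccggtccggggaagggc
Csf1: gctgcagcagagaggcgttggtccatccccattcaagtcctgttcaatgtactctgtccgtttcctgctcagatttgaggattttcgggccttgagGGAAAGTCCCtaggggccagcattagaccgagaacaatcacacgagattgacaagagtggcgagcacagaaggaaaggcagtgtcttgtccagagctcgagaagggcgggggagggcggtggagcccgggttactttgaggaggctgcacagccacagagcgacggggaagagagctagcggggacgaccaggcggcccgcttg
Srxn1: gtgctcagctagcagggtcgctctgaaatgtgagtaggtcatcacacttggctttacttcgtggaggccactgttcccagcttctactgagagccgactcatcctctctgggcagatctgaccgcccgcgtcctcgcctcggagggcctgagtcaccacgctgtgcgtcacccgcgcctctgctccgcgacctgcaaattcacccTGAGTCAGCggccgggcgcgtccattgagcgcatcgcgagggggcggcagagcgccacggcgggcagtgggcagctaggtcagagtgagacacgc
The windows of Cxcl1, Nfkbia, Nfkb2 and Csf1 belong to genes that were high in Mel321-35 replicate 4, and that of Srxn1 to a gene whose groups were separate in all 7 libraries. A match of letters is a description of the window and not a bound site.

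Srxn1 and Ubald2 were the 2 lower genes called both with and without the batch 2 library. Their batch 1 calls were not stable: with 1 library left out, Srxn1 was called in 1 of 6 fits and Ubald2 in 2 of 6. Srxn1 (ENSMUSG00000032802), sulfiredoxin, which repairs overoxidised peroxiredoxins, had 141, 147, 146 and 141 CPM with Mel322-34, against 164 (replicate 3), 165 (replicate 4) and 181 (replicate 1) CPM with Mel321-35. Every Mel322-34 library was below every Mel321-35 library. The log2 fold change was -0.19 ± 0.042 (adjusted p = 0.0367) in batch 1 and -0.24 (adjusted p = 0.00594) with the batch 2 library, and it was -0.19 without replicate 4, with adjusted p = 0.821. Ubald2 had 12.5, 10.6, 10.9 and 12.3 CPM, against 16.2, 15.2 and 14 CPM (-0.44 ± 0.094, or -0.49 without replicate 4 with adjusted p = 0.559).

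Srxn1 belongs to the targets of NRF2, the factor that switches on antioxidant and iron storage genes. Of 28 members tested in batch 1, 0 rose and 1 fell, 25 had a negative log2 fold change and the median was -0.10, where 0.0683% of all 14633 genes fell and 7502 were negative. When the batch 2 library was added 5 fell, against 0.232% of all genes: Srxn1, the ferritin heavy chain Fth1 (-0.22), the cystine transporter Slc7a11 (-0.24) and the pentose phosphate enzymes Taldo1 (-0.18) and Pgd (-0.19). Fth1 had 1990, 1970, 1920 and 2000 CPM with Mel322-34, against 2180 (replicate 3), 2260 (replicate 4) and 2430 (replicate 1) CPM with Mel321-35. Slc7a11 had 59.9, 62.4, 68.3 and 62.6 CPM, against 73.5, 77.3 and 73.3 CPM. Both were separate in all 7 libraries, with batch 1 values of -0.17 ± 0.046 (adjusted p = 0.108) and -0.25 ± 0.065 (adjusted p = 0.0868). In the fit with the batch 2 library and without replicate 4, 1 of the 28 fell, and the median stayed at -0.11. In batch 1 the median was -0.11 without replicate 4 and -0.12 without replicate 3, fits that each leave 1 Mel321-35 library. Chosen after their values were seen, the autophagy receptor Sqstm1 and the peroxiredoxin Prdx6 also fell with the batch 2 library (-0.15 each). The groups were separate in all 7 libraries for Prdx6 and overlapped for Sqstm1.

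The 28 genes that were higher with Mel322-34 differed by 1.16 to 1.42-fold and came from several functions. In all 28 both batch 1 libraries of Mel321-35 were below every Mel322-34 library: replicate 3 stood at 0.719 (Lcor) to 0.866 (Polr2a) times the Mel322-34 mean and replicate 4 at 0.642 (Kmt2c) to 0.852 (Polr2a) times. The batch 2 library was below every Mel322-34 library for 25 of the 28 and within their range for Ep400, Spen and Lcor. None of the 28 passed (edgeR) when replicate 4 was left out, with log2 fold changes of 0.21 to 0.48 in that fit.

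A first group encodes matrix and TGF-beta-related proteins. Fibronectin, Fn1 (ENSMUSG00000026193), the main adhesive glycoprotein of the matrix, had 73.4, 74.7, 79.0 and 68.3 CPM with Mel322-34, against 56.5 (replicate 3), 56.4 (replicate 4) and 57.7 (replicate 1) CPM with Mel321-35. The 3 Mel321-35 libraries lay close together across both batches, and the log2 fold change was 0.39 ± 0.060 (adjusted p = 0.0026) in batch 1, 0.38 (adjusted p = 0.00121) with the batch 2 library and 0.38 (adjusted p = 0.181) without replicate 4. Scube3 (ENSMUSG00000038677), a secreted glycoprotein that can act with TGF-beta receptors, had 36.0, 33.9, 32.8 and 34.9 CPM, against 25.4, 25.7 and 29.0 CPM (0.43 ± 0.069, adjusted p = 0.00289). The batch 2 library was the nearest to Mel322-34, and the value with it was 0.37 (adjusted p = 0.00594). Pmepa1, a TGF-beta-induced membrane protein that restrains SMAD signalling, had 50.7, 49.8, 55.8 and 51.5 CPM, against 39.4, 39.1 and 35.1 CPM (0.40 ± 0.060, and 0.45 with the batch 2 library). Ccn2, a matrix protein also known as connective tissue growth factor, had 39.5, 38.7, 41.5 and 35.9 CPM, against 30.8, 30.1 and 30.6 CPM (0.35 ± 0.071 in batch 1 and 0.35 with the batch 2 library). The groups were separate for all 4 genes in all 7 libraries.

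Of 24 TGF-beta targets and SCUBE genes tested, 2 rose in batch 1 (Scube3 and Ccn2) and 0 fell, with a median of -0.0025, where 0.191% of all genes rose. With the batch 2 library 4 rose and 0 fell (median 0.045), against 0.794% of all genes higher, among them the SMAD corepressor Skil (0.22). Skil had 92.5, 95.5, 98.0 and 93.5 CPM with Mel322-34, against 83.5 (replicate 3), 80.7 (replicate 4) and 79.9 (replicate 1) CPM with Mel321-35, and in batch 1 its log2 fold change of 0.21 did not pass (adjusted p = 0.139). The ligand Tgfb1 (-0.29 ± 0.11), the receptors Tgfbr1 (0.13 ± 0.068) and Tgfbr2 (0.049 ± 0.061) and the inhibitory Smad7 (-0.020 ± 0.061) did not pass in either fit. Of 31 invasion and adhesion genes Fn1 alone rose in batch 1, and 3 rose with the batch 2 library, among them Fn1 and the adhesion molecule L1cam (0.36), while Cd44 (0.0079 ± 0.042) and Itgb1 (0.021 ± 0.039) did not pass. Fibroblasts are a rich source of such matrix transcripts, and the summed level of 10 fibroblast markers was 29.5 to 31.9 CPM with Mel322-34, against 27.4 (replicate 3), 27.3 (replicate 4) and 29.6 (replicate 1) CPM with Mel321-35, with Lum at 0 in all 7 libraries and Dcn at 0 in all 4 of Mel322-34. Of the 6 markers tested 0 passed, 5 had a positive log2 fold change and the median was 0.15. The collagen gene Col1a1 had 3.90, 3.54, 3.66 and 3.16 CPM with Mel322-34, against 2.62 (replicate 3), 2.37 (replicate 4) and 3.28 (replicate 1) CPM with Mel321-35, with batch 1 groups that did not overlap (0.51 ± 0.21, unadjusted p = 0.0222, adjusted p = 0.419 by edgeR), and the matrix gene Postn had a log2 fold change of 0.19 ± 0.13. For the summed level the exact permutation p was 0.0667 in batch 1, the smallest possible, and 0.0571 with all 7 (adjusted over 11 such tests, 0.367 and 0.314), and the part of these transcripts in the result was not tested.

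Signalling and membrane genes made up a second group. Hipk2 (ENSMUSG00000061436), a nuclear kinase that acts on p53 and other transcription factors, had a log2 fold change of 0.51 ± 0.080 (adjusted p = 0.0026), the highest of the 28 together with Xylt1. It had 43.3, 39.4, 44.3 and 38.7 CPM with Mel322-34, against 30.2 (replicate 3), 27.9 (replicate 4) and 30.4 (replicate 1) CPM with Mel321-35, so the groups were separate in all 7 libraries. The neuregulin receptor Erbb3 had 81.7, 81.4, 81.9 and 83.3 CPM, against 69.9, 66.3 and 65.2 CPM (0.27 ± 0.055). Enpp2, autotaxin, the secreted enzyme that makes lysophosphatidic acid, had 57.6, 57.1, 56.3 and 58.2 CPM, against 48.4, 44.6 and 51.3 CPM (0.30 ± 0.056). Utrophin, Utrn, which links actin to the membrane, had 190, 189, 185 and 171 CPM, against 142, 142 and 146 CPM (0.37 ± 0.058). Xylt1, the enzyme that starts glycosaminoglycan chains on proteoglycans, had 18.2, 16.3, 17.3 and 17.1 CPM, against 12.5, 11.6 and 14.7 CPM (0.51 ± 0.11). The kinase Wnk1 (0.25), the beta-catenin regulator Apc (0.24), the SRF coactivator Mrtfb (0.29), the microtubule-associated Nav1 (0.31) and Nav2 (0.30), the lipid transfer protein Vps13b (0.29), Faxc (0.40), Ankhd1 (0.36) and Prrc2c (0.28) rose by similar amounts.

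The third group acts in the nucleus. Kmt2c (ENSMUSG00000038056), a histone H3 lysine methyltransferase, had 37.9, 38.1, 36.4 and 31.9 CPM with Mel322-34, against 29.8 (replicate 3), 23.2 (replicate 4) and 25.6 (replicate 1) CPM with Mel321-35 (0.44 ± 0.092, adjusted p = 0.0321). Its replicate 4 was the lowest, and the value without it was 0.28 (adjusted p = 0.989). Brca2, which acts in the repair of broken DNA by homologous recombination, had 30.8, 33.3, 30.1 and 31.7 CPM, against 25.0, 22.5 and 24.4 CPM (0.40 ± 0.077). Polr2a, the largest subunit of RNA polymerase II, had 366, 356, 346 and 340 CPM, against 305, 300 and 304 CPM, the smallest change of the 28 (0.22 ± 0.046). The acetyltransferase Ep300 (0.27), the Mediator subunit Med12 (0.33), the remodeller Ep400 (0.32), the corepressors Lcor (0.43) and Spen (0.30), the transcription factor Usf3 (0.43) and the zinc finger gene Zfp41 (0.44) also rose. Of 36 large chromatin regulators 3 rose in batch 1 and 0 fell, 34 had a positive log2 fold change and the median was 0.16, where 0.191% of all 14633 genes rose and 7130 were positive. With the batch 2 library 9 rose and 0 fell (median 0.18), against 0.794% of all genes higher, and these were Kmt2c, Ep300, Med12, Bptf (0.22), Setd2 (0.23), Arid2 (0.24), Chd6 (0.28), Arid1a (0.23) and Chd1 (0.21), which place, read or remodel marks on chromatin. Of 23 genes of homologous recombination and DNA damage Brca2 alone rose, in either fit.

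**Figure D3:**
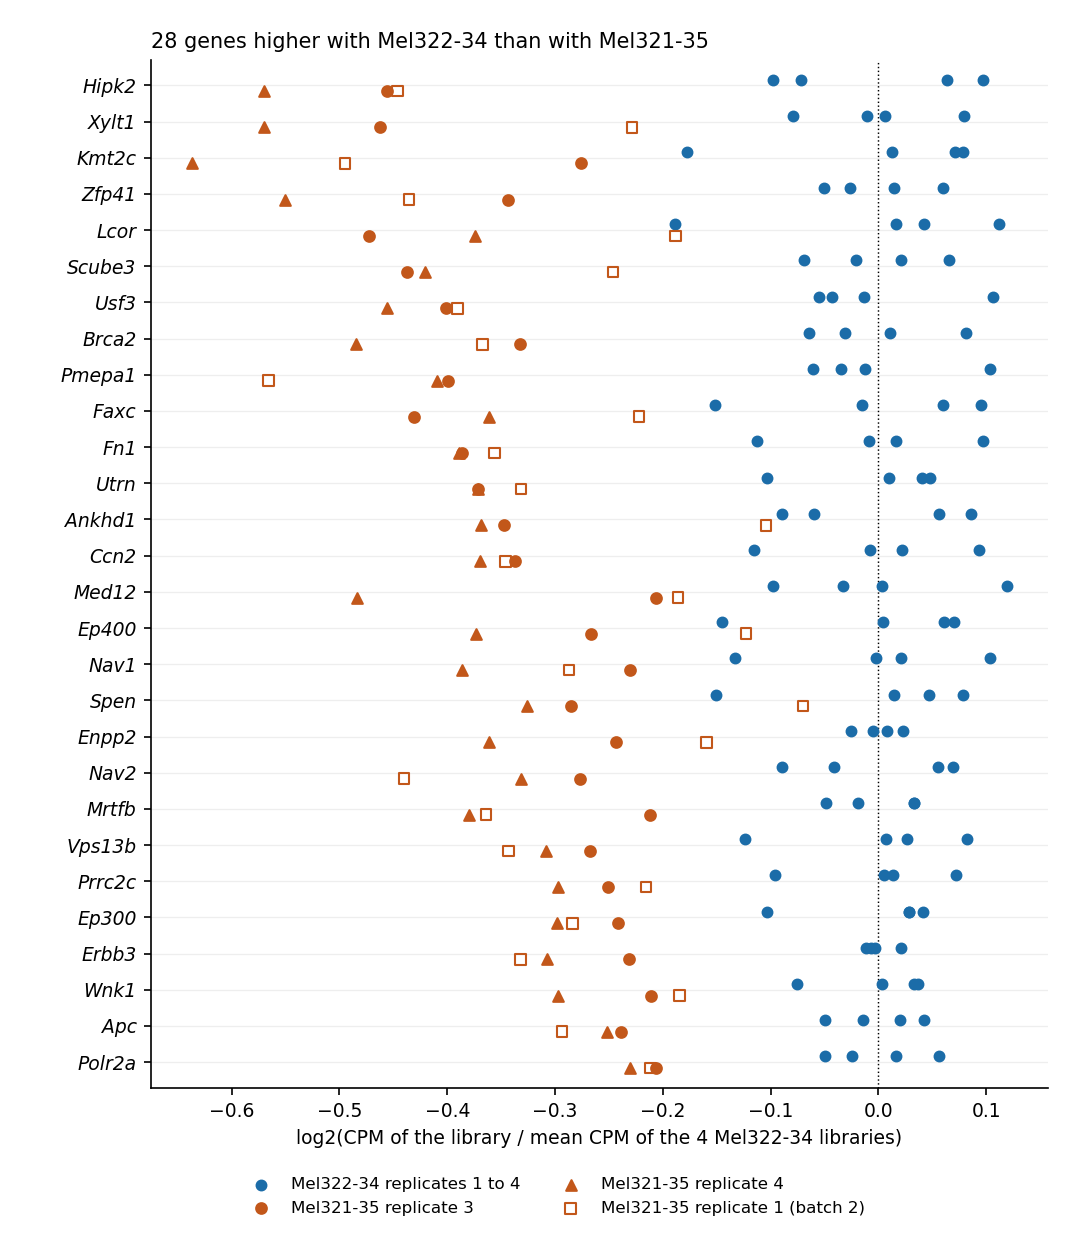
The 28 genes called higher with Mel322-34 than with Mel321-35 in batch 1, each library shown as the log2 ratio of its CPM to the mean of the 4 Mel322-34 libraries (blue circles). The batch 1 libraries of Mel321-35 (filled orange circle for replicate 3, triangle for replicate 4) lie to the left of the Mel322-34 libraries for all 28 genes, and the batch 2 library (open square) does so for 25.

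The higher genes had long transcripts. Their median length (longest GENCODE M21 transcript) was 8667.5 bases, against 2783.5 bases for the lower genes and 3117 bases for all tested genes, and 23 of the 28 fell in the longest of 5 equal length classes of the 10170 genes with an average log2 CPM above 2. Over those genes the log2 fold change followed length, with a Spearman rho of 0.468 in batch 1 and 0.562 with the batch 2 library, across genes that are not independent replicates. From the shortest to the longest class the median log2 fold change was -0.053, -0.033, -0.0067, 0.018 and 0.078. With the trend of each library on length removed, 23 genes were called in batch 1, 9 higher and 14 lower, and 20 with the batch 2 library. Of the 28 higher genes 8 were still called: Hipk2 (0.42), Enpp2 (0.32), Fn1 (0.29), Scube3 (0.36), Ccn2 (0.39), Pmepa1 (0.38), Faxc (0.38) and Utrn (0.22). Fn1, Scube3, Ccn2 and Pmepa1 were thus among those that kept their call, while of the 36 chromatin regulators 0 passed and the median was 0.034 (edgeR, adjusted p = 0.247 for Kmt2c). Of the 10 lower genes 7 kept their call (Junb, Relb, Nfkb2, Cxcl1, Dusp8, Nfkbia and Csf1), and Srxn1 had -0.17 with adjusted p = 0.0789. Of the 28 NRF2 targets 2 others fell in this batch 1 fit, with a median of -0.076, where 14 of all 14633 genes fell. In the heat shock, integrated stress response and neutral amino acid transporter lists 1 member each fell, and a gene can belong to more than 1 list.

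**Figure D4:**
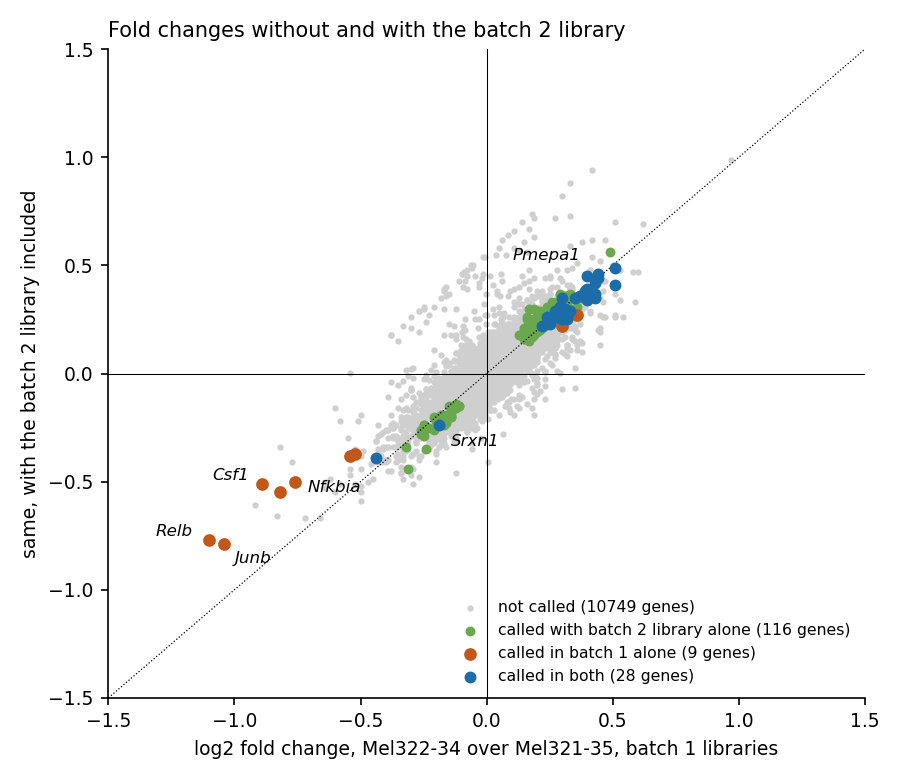
Log2 fold change of Mel322-34 over Mel321-35 in batch 1 (horizontal) and with the batch 2 library included (vertical), for genes tested in both fits whose average log2 CPM reached 1, with the dotted line at equal values. Genes called in both (blue) lie along that line, 26 of them on the higher side, while the lower genes called in batch 1 alone (orange) lie above it; Ankhd1 and Spen are the orange points on the higher side. Green points were called with the batch 2 library alone. The lower orange points, such as Relb and Junb, are nearer to 0 once the batch 2 library is included.

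Adding the batch 2 library also brought in genes of very low level. The potassium channel Kcnj13 had 0.455, 0.739, 0.438 and 0.309 CPM with Mel322-34, against 0.0564 (replicate 3), 0 (replicate 4) and 0.039 (replicate 1) CPM with Mel321-35. The neuropeptide precursor Npff had 0.0569, 0.0923, 0 and 0 CPM, against 0.451, 0.497 and 0.195 CPM. Both were separate in all 7 libraries, and both are named after their values were seen, as the only genes past 1.5-fold among the 146 calls. Their adjusted p was 0.0247 and 0.0427 with the batch 2 library and 0.0741 and 0.0562 in batch 1.

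Genes of the HSP70 chaperones themselves did not pass in either fit. The constitutive HSP70 gene Hspa8 had 1950, 1920, 1970 and 1930 CPM with Mel322-34, against 1890 (replicate 3), 1870 (replicate 4) and 2120 (replicate 1) CPM with Mel321-35. Its log2 fold change was 0.046 ± 0.032 in batch 1 (95% interval -0.020 to 0.11) and -0.013 with the batch 2 library, which had the highest level of the 7. The stress-inducible Hspa1b had 3.59, 4.19, 2.84 and 2.71 CPM, against 3.80, 4.52 and 3.63 CPM (-0.31 ± 0.21, 95% interval -0.75 to 0.13). Hspa1a, its near-identical copy, had 0 to 0.117 CPM and was not tested, and reads that fit both copies make either value uncertain. The endoplasmic reticulum chaperone Hspa5 (-0.054 ± 0.037), Hsp90aa1 (-0.071 ± 0.035), Hsph1 (0.040 ± 0.043) and Dnajb1 (0.051 ± 0.058, or -0.038 with the batch 2 library) did not pass either. Of 33 heat shock genes tested 0 rose and 0 fell in either fit (edgeR, 3 at an unadjusted p under 0.05 in batch 1), with a median of -0.042. In batch 1, 25 of the 33 had a negative log2 fold change, against 7502 of all 14633 genes. With the length trend removed in batch 1, 0 rose and 1 fell, and the median was -0.016. With that trend left in, the nearest to the threshold in batch 1 was the co-chaperone Dnajb4, at 24.8, 24.7, 26.1 and 26.5 CPM with Mel322-34, against 30.1, 32.8 and 25.9 CPM with Mel321-35 (-0.30 ± 0.071, adjusted p = 0.0602). Of 7 tested genes among the reported receptors of extracellular HSP70, 0 passed (edgeR, 0 at an unadjusted p under 0.05), with Tlr4 at 0.15 ± 0.074 and its adaptor Myd88 at -0.12 ± 0.10, or 0.012 with the batch 2 library.

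The interferon list moved with the batch 2 library. Of 40 interferon-stimulated genes 0 passed in either fit (edgeR, 1 at an unadjusted p under 0.05 in batch 1), and the median was -0.044 in batch 1 and 0.30 with the batch 2 library. The list member Oasl1 had 17.5, 31.8, 12.8 and 15.7 CPM with Mel322-34, against 16.0 (replicate 3), 25.9 (replicate 4) and 0.117 (replicate 1) CPM with Mel321-35. Its log2 fold change was -0.092 ± 0.25 without the batch 2 library and 0.46 with it. The largest positive batch 1 value of the list was that of Ifit3 (0.34 ± 0.16, adjusted p = 0.507). The epithelial keratin Krt8 had 2.93, 4.71, 2.31 and 3.64 CPM, against 2.11, 5.62 and 0 CPM, and a log2 fold change of -0.16 ± 0.28 that turned to 0.40 with the batch 2 library.

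Few genes of housekeeping and lineage programmes passed. Of 79 cytosolic ribosomal protein genes 0 passed in either fit (edgeR, 22 lower and 0 higher at an unadjusted p under 0.05 in batch 1, where 4.03% of all genes were lower). In batch 1, 75 had a negative log2 fold change, against 7502 of all 14633 genes. The median was -0.079, or -0.14 with the batch 2 library and -0.024 with the length trend removed in batch 1. Of 64 nuclear genes of oxidative phosphorylation 0 passed in batch 1 (edgeR, 6 at an unadjusted p under 0.05), and 60 had a negative log2 fold change. Their median was -0.063, or -0.12 with the batch 2 library and -0.0037 with the length trend removed in batch 1. With the batch 2 library 1 fell, the complex I subunit Ndufb7 (-0.25). Of 22 melanocyte genes 0 passed in either fit (edgeR, 2 at an unadjusted p under 0.05 in batch 1), with Mitf at 702, 665, 684 and 684 CPM with Mel322-34, against 666 (replicate 3), 607 (replicate 4) and 623 (replicate 1) CPM with Mel321-35 (0.10 ± 0.043, adjusted p = 0.424). Of 32 genes of G2 and mitosis 0 passed (edgeR, 4 at an unadjusted p under 0.05 in batch 1), the nearest being the proliferation antigen Mki67 (0.22 ± 0.053, adjusted p = 0.0602). Of 28 genes of translation control 0 passed in batch 1 (edgeR, 6 at an unadjusted p under 0.05), and 1 fell with the batch 2 library, the translation repressor Eif4ebp1 (-0.24, adjusted p = 0.0326, against -0.25 ± 0.059 and 0.0602 in batch 1). The sulfotransferase Chst11 was at 4.58 ± 0.614 CPM with Mel322-34 (SD, n = 4), against 4.09 (replicate 3), 2.26 (replicate 4) and 1.95 (replicate 1) CPM with Mel321-35, and did not pass (0.51 ± 0.25, adjusted p = 0.516).

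**Figure D5:**
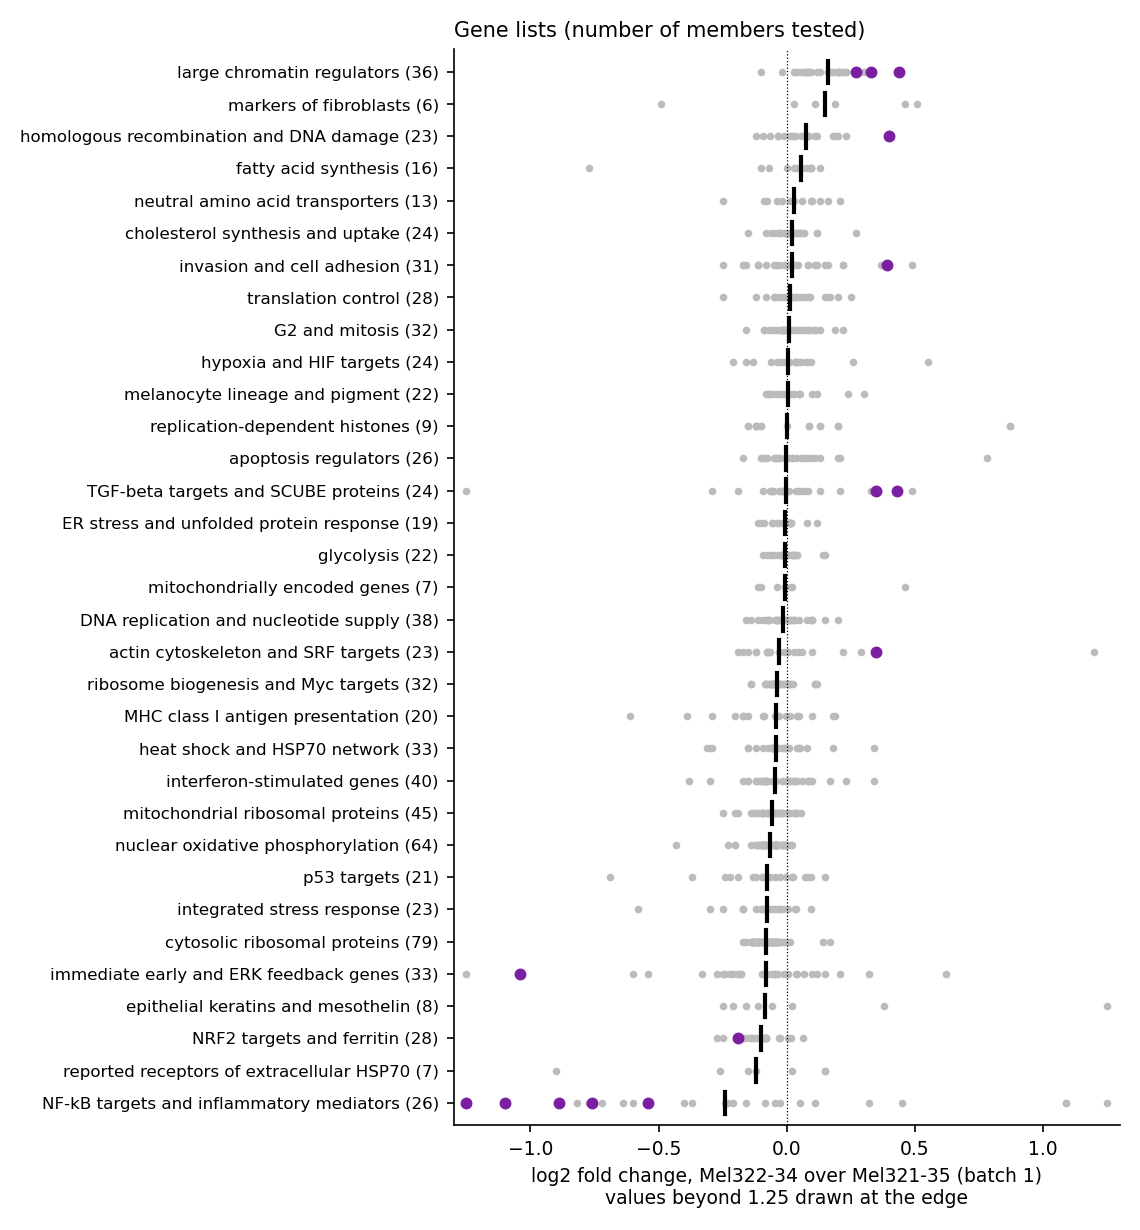
Log2 fold change of Mel322-34 over Mel321-35 in batch 1 for the tested members of each gene list (dots; purple for genes called at an adjusted p under 0.05), with the list's median as a bar and the number of tested members in brackets, for lists with at least 5. Medians run from -0.24 for the NF-kB list to 0.16 for the large chromatin regulators.

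The other 2 antibodies shared the fit, and their levels differ in which of the pair they lie nearer to. For the 28 higher genes the MGO.53 mean was below the Mel322-34 mean in all 28 and between the 2 antibodies in 26, the exceptions being Scube3 and Erbb3, whose MGO.53 means lay below both. It was nearer to Mel321-35 for 20 of the 28: Fn1 averaged 73.9 ± 4.41 CPM with Mel322-34 (SD, n = 4), 56.5 CPM in the 2 batch 1 libraries of Mel321-35 and 62.5 CPM with MGO.53, and Scube3 averaged 34.4 ± 1.38, 25.6 and 23.7 CPM in that order. For the 10 lower genes the MGO.53 mean lay between the 2 antibodies in all 10 and was nearer to Mel321-35 in 2, Srxn1 (144 ± 3.54, 164 and 160 CPM) and Ubald2 (11.6 ± 0.966, 15.7 and 13.9 CPM). For the other 8 it was nearer to Mel322-34, as with Relb, at 8.95 ± 1.52, 19.3 and 9.59 CPM. With Mel321-31 the mean lay between the 2 antibodies for 27 of the 28 higher genes and nearer to Mel321-35 for 5, and for the 10 lower genes it lay between them in 3 and nearer to Mel321-35 in 1. Fn1 averaged 62.3 CPM, Scube3 27.5 CPM, Srxn1 157 CPM and Relb 7.48 CPM with Mel321-31. These levels share the libraries of the comparison itself and carry no test here. The genes were picked because the 2 antibodies differ in these data, so the mean of another antibody is likely to lie between them. The share of all tested genes with such a mean is not given here.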

How the data were processed

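RNA was sequenced from B16-F10 cells after 24 h with 1 of 4 antibodies. The submitters' processing notes name HTSeq 2.01, STAR 2.7.10a and DESeq2. Genome build, annotation and the strand setting of the counting: not given in the sources used here. The authors deposited whole-number counts per gene, used for every test, and a DESeq2-normalised signal for 19365 genes, used only as a check. Of 55414 identifiers, 49164 had values.

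From the counts, edgeR 4.0.16 (R 4.3.3, TMM scaling, filterByExpr, quasi-likelihood test, Benjamini-Hochberg adjusted p under 0.05) was fitted to the 14 batch 1 libraries of all 4 antibodies, with Mel322-34 minus Mel321-35 as the contrast. A second fit added the batch 2 library with no batch term, since that batch holds 1 library. The biological coefficient of variation was 5.46% and 5.98%. CPM values use the TMM factors; summed CPM and mitochondrial shares use total counts. Errors are standard errors unless called SD. Total counts were 26.1 to 35.2 M per library, and counting error is only part of the error given.

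Genes were named by a rule: the 12 largest changes per direction among called genes whose average log2 CPM reached 1, from each list up to 4 called members (or the 2 of smallest p), and 12 genes always given. The remaining called genes were added so that all 38 are named, and other genes outside the rule (among them Rela, Nfkb1, Tnfaip3, Jun, Fos, Tgfb1, its receptors, Smad7, Cd44, Itgb1, Oasl1 and genes called with the batch 2 library) were chosen after their values were seen. The comparison, the members and the 36 gene lists were chosen with earlier results of these data known. Alternatives used DESeq2 1.42.0, limma 3.58.1 (voom), other scalings, filters and thresholds, each library left out, a replicate block and removal of the length trend; those that pair a second change with the batch 2 library were chosen after seeing the data. The method was tested on simulated data. Some called list members are not reported here by name.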

Additional observations from a re-analysis of the deposited data

Results flagged for a closer look

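Within the 4 Mel322-34 libraries 88 values were tested: those of 86 named genes, the total count and the mitochondrial share. Of these, 4 had 1 library far from the other 3, and chance flags about 1 in 20 groups. Ep300 had 104 CPM in replicate 4, against 114 to 115 CPM in the others. H1f2 had 16.8 CPM in replicate 1, against 14.5 to 14.7 CPM. Muc1 had 0.406 CPM in replicate 3, against 0.541 to 0.554 CPM. Cd68 had 16.4 CPM in replicate 2, against 14.6 to 14.9 CPM. The groups of Mel321-35 were too small for this test.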

How the results depend on the processing

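The batch 1 count of 38 became 146 with the batch 2 library, 21 with it and the 2 antibodies alone, 147 with DESeq2, 22 with limma-voom, 77 with a filter of 10 counts, 61 with a filter of 1 CPM, 8 at an adjusted p under 0.01, 0 at 1.2-fold (edgeR, 161 at an unadjusted p under 0.05), 16 with a replicate block and 23 with the length trend removed; leaving out 1 library gave 0 to 58. The count of 146 became 563 with DESeq2, 20 with the length trend removed and 225 with the replicate block, and 8 to 434 with 1 library left out. Other scalings gave 34 to 38. Libraries of the 2 antibodies with the same replicate number had correlations of 0.00805 to 0.257 over 2 pairs in batch 1. With the batch 2 library they were -0.043 to 0.0814 over 3 pairs. So few pairs cannot show whether replicate numbers pair the samples.

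Of 86 single genes, 17 changed sign under an alternative, 3 of them called (Csf1, Nfkbia and Cxcl1, each with the batch 2 library in and Mel321-35 replicate 4 out). With the batch 2 library, in the fit of all antibodies and of the 2 alone, Myd88 was 0.012 and 0.013, Krt18 0.31 and 0.31, Hspa8 -0.013 and -0.013, Dnajb1 -0.038 and -0.038, and Krt8 0.40 and 0.40, with 0.033 for Krt8 under limma-voom. With 1 library left out, the log2 fold change ranged from -0.27 to 0.065 for B2m, -0.65 to 0.0022 for Btg2, -0.22 to 0.072 for Cd68, -1.43 to 0.32 for Csf1, -3.77 to 0.50 for Cxcl1, -0.082 to 0.078 for Dnajb1, -0.18 to 0.023 for Ern1, -0.043 to 0.053 for Hspa8, -0.020 to 0.085 for Hsph1, -0.74 to 0.33 for Irf1, -0.64 to 0.83 for Krt18, -0.73 to 1.56 for Krt8, -0.0034 to 0.43 for Lyz2, -0.12 to 0.015 for Myc, -0.21 to 0.15 for Myd88, -1.24 to 0.073 for Nfkbia and -0.45 to 0.21 for Xaf1. The cause was not tested. With 2 Mel321-35 libraries in batch 1, precision is limited by their number, and batch and antibody cannot be told apart in the third.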
